A study of Drosophila melanogaster with 6 samples.

Results

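Odorant-binding proteins are small soluble carriers that support cells secrete into the lymph around insect olfactory and taste neurons. They bind odorants and pheromones, and several family members are also made outside the sense organs, in glia, fat body or reproductive tissue. The family was taken here as every gene named Obp with a number, plus lush and Os-C, that had a probe set mapped to a single gene in the platform annotation. This gave 37 genes with 1 probe set each, of 13966 non-control probe sets on the array. RefSeq (Release 6) lists 53 such genes, and the 16 without a single-gene probe set, among them Obp83a, are not analysed here.

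Total RNA of brains was hybridised to Affymetrix Drosophila arrays. The flies were adult females of CantonS, a wild-type laboratory strain, raised at 25 °C. Untreated brains gave 3 arrays (control 1, 2 and 3), and another 3 (ablated 4, 5 and 6) came from flies that lack the mushroom bodies. These paired centres of olfactory learning had been removed by feeding hydroxyurea, a blocker of DNA synthesis, to larvae just after hatching (25 mg/ml for 4 h). Every ablated array had the drug and no control array did, so drug and loss of the mushroom bodies cannot be told apart. The labels tie no array to a separate culture, so the spread behind each p-value is that between these arrays and may be technical only. Values are intensities on a linear scale. The median of all probe sets was 14.2 to 17.6 in control and 13 to 14.8 in ablated brains. Precision is limited by the number of arrays. The pan-neuronal gene elav read 124.7, 96.7 and 105.2 on control 1, 2 and 3, against 93.0, 60.6 and 84.4 on ablated 4, 5 and 6. Of the 5 measured neuron markers, elav included, 4 had a log2 difference below 0 and 1 above. The one above was brp, with 100.1, 73.4 and 63.9 on the control arrays, against 86.2, 86.1 and 76.7 on the ablated arrays. In all of these markers but elav the groups overlapped. The mushroom body gene ey read 268.4, 193.2 and 198.7 on the control arrays, against 107.5, 98.2 and 120.2 on the ablated arrays, lower on each ablated array. In whole brains, fewer cells of a type and less RNA per cell cannot be told apart.

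The family split into 3 kinds of pattern. Of the 37 genes, 8 were high on at least 1 ablated array, and all 8 were highest on ablated 5. Of these 8, only Obp56d and Obp19d were higher on all 3 ablated arrays than on all 3 control arrays. Another 10 genes reached 9.2, the 40th percentile of all values, on some array but were not high on an ablated one, and the other 19 stayed below 9.2 on all 6 arrays. An array was counted as high where it read at least 9.2 and stood at least 2-fold above the highest control array, after adding 2.7 (the 20th percentile) to every intensity. The order seen in Obp56d and Obp19d held for 1.18% of all probe sets, and the shares beside the counts of high arrays are given below. Only 11 of the 37 genes were bright enough on average to be tested for a difference between the groups, and lush and Obp59a were not among them. Of the 11, 0 passed, as did 0 of all 8381 tested probe sets.

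**Figure D1:**
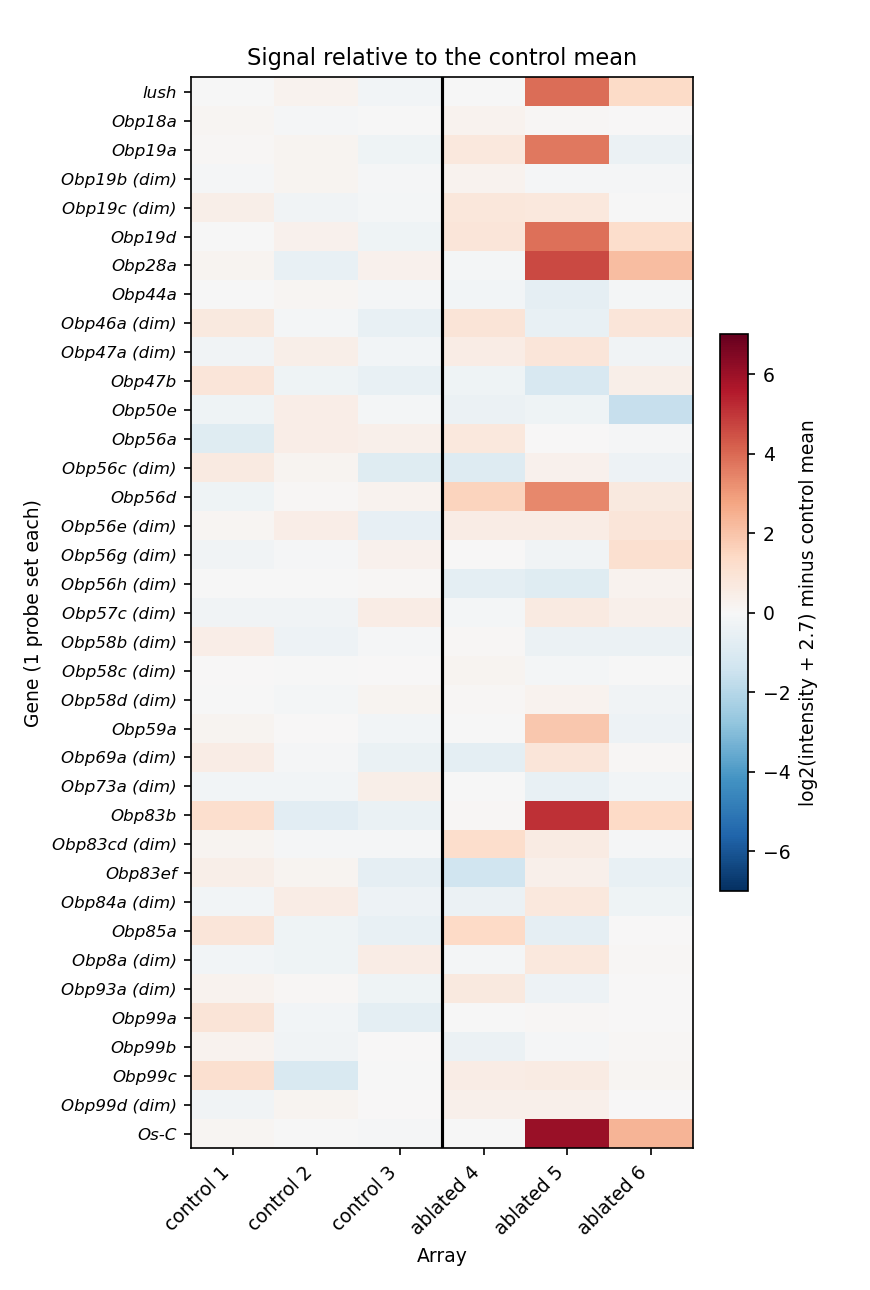
Each row is 1 of the 37 genes and each column 1 array; colour gives log2(intensity + 2.7) minus the mean of the 3 control arrays, red above and blue below. Genes marked dim read under 9.2 on all 6 arrays. The darkest cells lie in the ablated 5 column, and Obp56d and Obp19d are the genes at or above 9.2 that are red in all 3 ablated columns with no control array as high.

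Obp56d (147516_at), a carrier found in antennae and taste organs, read 19.3, 26.1 and 29.1 on control 1, 2 and 3, against 76.9, 280.4 and 41.6 on ablated 4, 5 and 6. Every ablated array was above every control array, and both ablated 4 and ablated 5 were at least 2-fold above the highest control. The group means were 24.8 ± 5.02 (SD, n = 3) and 133 ± 129 (SD, n = 3), and the log2 difference was 1.88 (SE 0.55, adjusted p = 0.554 by limma over 8381 probe sets). Its unadjusted p ranked 66th among those probe sets. Without ablated 5 the log2 difference was 1.13.

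Obp19d (153423_at), also known as PBPRP2 and present in olfactory and taste organs, read 28.6, 36.7 and 23.4 on control 1, 2 and 3, against 53.5, 463.1 and 71.3 on ablated 4, 5 and 6. The groups did not overlap here either, but only ablated 5 was at least 2-fold above the highest control, while ablated 6 stood 1.88-fold and ablated 4 stood 1.43-fold above it. The group means were 29.6 ± 6.70 (SD, n = 3) and 196 ± 232 (SD, n = 3). The log2 difference was 1.97 (SE 0.65, limma, adjusted p = 0.554), and 1.02 without ablated 5.

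Having every ablated array above every control array was not common on these arrays. Asking also for at least 1 array at or above 9.2, it held for 1.18% of all probe sets and for 2 of 37 family members. The reverse order, all 3 ablated arrays under all 3 control arrays, was found for 9.78% of all probe sets and for 0 family members. The upward count was sensitive to single arrays. It became 6 without control 1, adding Obp18a, Obp83b, Obp99a and Obp99c, and 6 without ablated 4, adding Obp28a, Obp83b, Os-C and lush; with fewer arrays, overlap is rarer by construction. After median centring, quantile normalization or cyclic loess it was 3, with Obp18a added. The share over all probe sets was not counted under these settings. The 1.18% holds only for the deposited values on all 6 arrays and is no background for the other counts.

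The remaining 6 of the 8 genes were high on ablated 5 without being higher on all 3 ablated arrays. Os-C (143613_at), first described as an olfactory-specific antennal transcript, read 1.3, 0.9 and 0.8 on control 1, 2 and 3, against 0.9, 237.1 and 16.3 on ablated 4, 5 and 6. Ablated 4 was at the control level, while ablated 6 and, much more, ablated 5 were above every control array. Its control values lay below the 2.7 that was added, so no fold over them is given. Obp28a (142437_at), an abundant antennal carrier, showed the same order, with 3.0, 0.8 and 3.5 on the control arrays, against 1.8, 119.3 and 19.2 on ablated 4, 5 and 6. These 2 genes were high on ablated 5 and ablated 6 and not on ablated 4.

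Obp83b (143614_at), the carrier OS-E of pheromone-sensing hairs, read 11.7, 1.1 and 1.9 on control 1, 2 and 3, against 4.1, 217.5 and 13.7 on ablated 4, 5 and 6. Its control 1 value was close to that of ablated 6 and above that of ablated 4. lush (143917_at), which is needed in the antenna to detect the male pheromone cis-vaccenyl acetate, read 0.5, 1.2 and 0.2 on the control arrays, against 0.5, 46.8 and 5.6 on ablated 4, 5 and 6. Its ablated 6 value was above every control array but below 9.2, and so was not counted as high.

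Obp19a (145424_at), an antennal carrier, read 2.9, 3.3 and 1.6 on control 1, 2 and 3, against 6.0, 65.9 and 1.2 on ablated 4, 5 and 6. Obp59a (147703_at), which takes part in humidity sensing in the antenna, read 2.3, 1.8 and 1.1 on the control arrays, against 1.7, 13.4 and 0.8 on ablated 4, 5 and 6. In both genes ablated 6 was below every control array, and ablated 5 was the only array at or above 9.2.

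**Figure D2:**
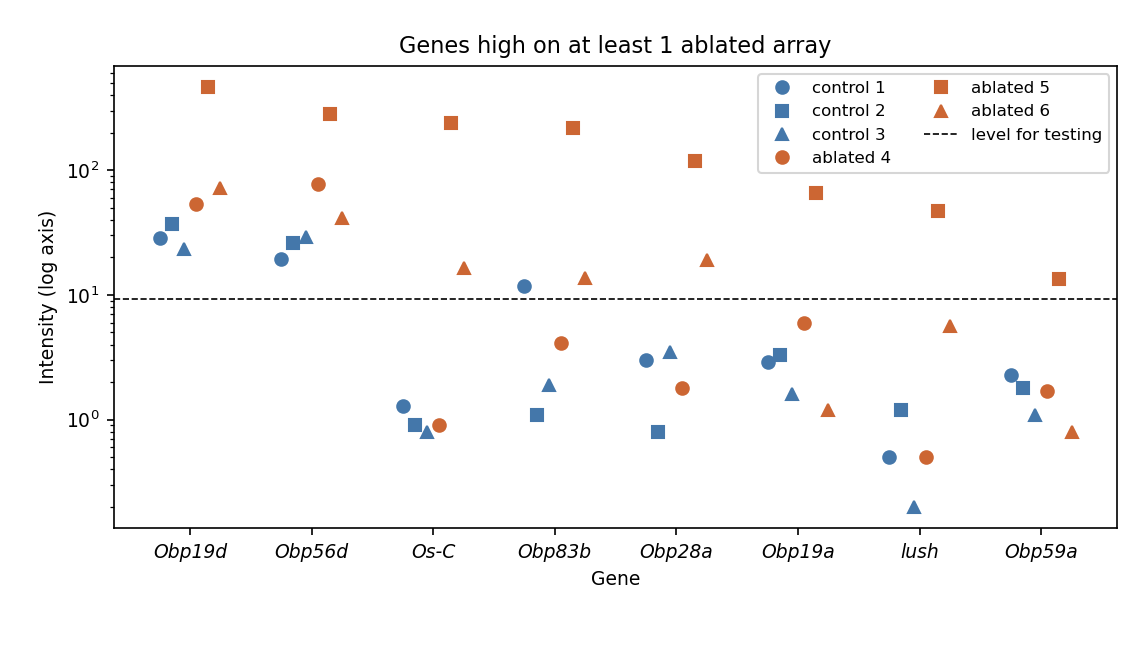
Intensity on each of the 6 arrays, on a log axis, for the 8 genes high on at least 1 ablated array; blue marks control and orange ablated arrays, and the dashed line is 9.2. The ablated 5 squares lie on top for all 8 genes, from 13.4 for Obp59a to 463.1 for Obp19d.

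By number of arrays, 5 members were high on exactly 1 ablated array (Obp19a, Obp19d, Obp59a, Obp83b and lush), and that array was ablated 5 in each. The share over all probe sets was 1.63% for exactly 1 ablated array and 0.594% where that array was ablated 5. Another 3 members were high on exactly 2 ablated arrays (Os-C and Obp28a on 5 and 6, Obp56d on 4 and 5), against 0.15% of all probe sets. Among the members counted, Os-C, Obp28a, lush, Obp19a and Obp59a read below 9.2 on every control array and reached it only on ablated arrays. The counts of 5 and 3 therefore support nothing about the family. No member was high on 3 ablated arrays, against 0.0215% of all probe sets. The mirrored count, exactly 1 control array at least 2-fold above the highest ablated array, was 0 of 37 members and 1.38% of all probe sets. With ablated 5 left out, 3 members were high on exactly 1 of the other ablated arrays, Os-C and Obp28a on ablated 6 and Obp56d on ablated 4. The share over all probe sets was not counted with ablated 5 left out.

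The 8 genes did not keep 1 ratio between the ablated arrays. As a ratio of intensities with nothing added, ablated 5 read 6.21-fold ablated 6 for Obp28a, 6.50-fold for Obp19d and 6.74-fold for Obp56d, but 14.5-fold for Os-C and 15.9-fold for Obp83b. Taken as the excess over the control mean, ablated 6 held 14.4% of the ablated 5 excess for Obp28a, 9.63% for Obp19d and 4.14% for Obp83b. Ablated 4 held 20.4% of the ablated 5 excess for Obp56d and 5.52% for Obp19d. For Os-C, Obp28a, Obp83b, lush and Obp59a, ablated 4 was at or below the highest control array.

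Ablated 5 was the highest of the 6 arrays for 14 of 37 members, against 9.92% of all probe sets. Among the 18 members that reached 9.2 on some array it was highest for 8, against 8.48% of all probe sets that did so. Of these 8, however, 5 (Os-C, Obp28a, lush, Obp19a and Obp59a) read below 9.2 on every control array. They were among the 18 only through ablated arrays, so the count of 8 supports nothing about the family. The rest of the 14 stayed below 9.2, where differences were not read. Without that limit, ablated 4 was highest for 10 of 37 members, against 12.3% of all probe sets. Over all members, then, the share was raised on ablated 4 as well as on ablated 5. Of those 10, only Obp18a, Obp56a and Obp85a reached 9.2 on some array, so most of the ablated 4 share lay among values that were not read. Ranked by the gap between ablated 5 and the next highest array on the log2(intensity + 2.7) scale, the family held 6 of the first 10 single-gene probe sets and 8 of the first 20. Obp83b came first with a 13.4-fold gap and Os-C second with a 12.6-fold gap. Ablated 5 was picked for this ranking because more members were highest on it than on any other array. The 8 family genes counted are the same 8 already classed as high, so the ranking is no separate support.

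Of the 12 genes outside the family with the largest such gap, 2 are known from the antenna. Antdh (142320_at), a short-chain dehydrogenase of the antenna, read 1.5, 7.9 and 3.2 on control 1, 2 and 3, against 1.5, 37.5 and 5.3 on ablated 4, 5 and 6. Jhedup (147280_at), an antennal esterase, read 8.6, 1.8 and 6.5 on the control arrays, against 4.0, 47.6 and 11.6 on ablated 4, 5 and 6. The other 10 were CG6409, Drsl5, Jhbp3, Tsp74F, Listericin, CG7409, GstE4, Ets98B, bt and CG17107. The widest gap among them was that of CG6409 (152086_at), with 78.9 on ablated 5 and at most 7.2 on the other arrays. Drsl5 read 234.7 on ablated 5 and at most 34.5 elsewhere, Jhbp3 160.1 and at most 34.5, and Listericin 76.4 and at most 19.2. The gene bt, from the muscle list described below, read 14.3 on ablated 5 and at most 3.2 elsewhere. The 12 genes were thus not all antennal.

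Chemosensory organ genes outside the family were listed for comparison, and 46 were measured. Of these, 4 were high on exactly 1 ablated array, against 1.63% of all probe sets. That array was ablated 5 for Antdh, Jhedup, a10 and a5 alike, against 0.594% of all probe sets. Antdh, Jhedup and a5 read below 9.2 on every control array and so counted only through ablated 5. The antennal protein gene a10 read 11.9, 12.9 and 7.4 on control 1, 2 and 3, against 15.2, 44.3 and 14.3 on ablated 4, 5 and 6, and a5 read 24.8 on ablated 5 and at most 7.0 elsewhere. The a10 values also had every ablated array above every control array, as had those of Ugt36E1 (4.1, 6.5 and 10.4 against 12.2, 18.6 and 15.3). The reverse held for Gasz (89.0, 67.2 and 71.2 against 58.1, 51.7 and 65.6), which was put in the same list though its place in chemosensory organs was not checked. Over all probe sets, every ablated array was above every control array in 1.18%, and the reverse held in 9.78%. Genes of the receptor neurons gave mixed and mostly low signals. The shared co-receptor Orco read 15.6 on ablated 5 and between 2.1 and 7.2 on the other arrays, while Ir25a read between 1.4 and 2.4 and Snmp1 between 1.0 and 6.4 on all 6. The receptor gene Or59b read 11.9, 16.8 and 21.7 on the control arrays, against 18.9, 15.1 and 3.7 on ablated 4, 5 and 6, Gr21a reached 17.7 on ablated 4 and Gr5a reached 16.3 on control 3, so these 3 were not highest on ablated 5. In the list as a whole, 25 genes lay above 0 and 21 below, with a median log2 difference of 0.084, and limma called 0. Its summed intensity was 2915, 3498 and 2261 on control 1, 2 and 3, against 4026, 4388 and 3378 on ablated 4, 5 and 6. Most of that sum was EbpIII, Ugt35B1 and Rh50. EbpIII read 348.7 to 1453.3 in control and 1130.0 to 2327.5 in ablated brains. Ugt35B1 read 792.3 to 1099.8 and 710.1 to 1077.8, and Rh50 read 669.0 to 799.4 and 549.2 to 744.7.

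Other tissues also differed between arrays. The summed intensity of 13 muscle genes was 351, 885 and 288 on control 1, 2 and 3, against 477, 1448 and 471 on ablated 4, 5 and 6, so ablated 5 was highest and control 2 second. Mlc2 alone read 449.7 on control 2 and 778.8 on ablated 5, and no muscle sum without it was taken. Of the 13 muscle genes, 3 were high on exactly 1 ablated array, against 1.63% of all probe sets. These were up (9.5, 57.4 and 9.6 against 17.1, 130.2 and 25.1) and bt (14.3) on ablated 5, and Act88F (40.3) on ablated 4. Of the 8 family genes high on an ablated array, Obp19d (36.7) had its highest control value on control 2, and Obp56d (26.1) did not. The others read between 0.8 and 3.3 on control 2, too low for the place of that array to be read. The 18 cuticle and tracheal genes summed to 503, 558 and 409 in control and to 805, 769 and 547 on ablated 4, 5 and 6, with 10 genes above 0 and 8 below and a median log2 difference of 0.051. On the ablated arrays much of that sum was wat, and without it the sums were 414, 403 and 366 in control and 489, 349 and 358 on ablated 4, 5 and 6, with ablated 5 lowest. As wat was itself highest on ablated 5, leaving it out lowers that array most. Within that list wat (89.4, 154.9 and 43.1 against 315.4, 419.5 and 189.3) and pio (11.2, 16.2 and 6.0 against 39.8, 48.9 and 20.5) were high on ablated 4 and 5, the same 2 arrays as Obp56d. The third gene of the list higher on every ablated array was TwdlF (6.4, 10.1 and 4.5 against 18.9, 10.4 and 11.6). Over all probe sets, 0.15% were high on exactly 2 ablated arrays and 1.18% were higher on every ablated array. The part of these tissues in the values of the family was not tested.

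**Figure D3:**
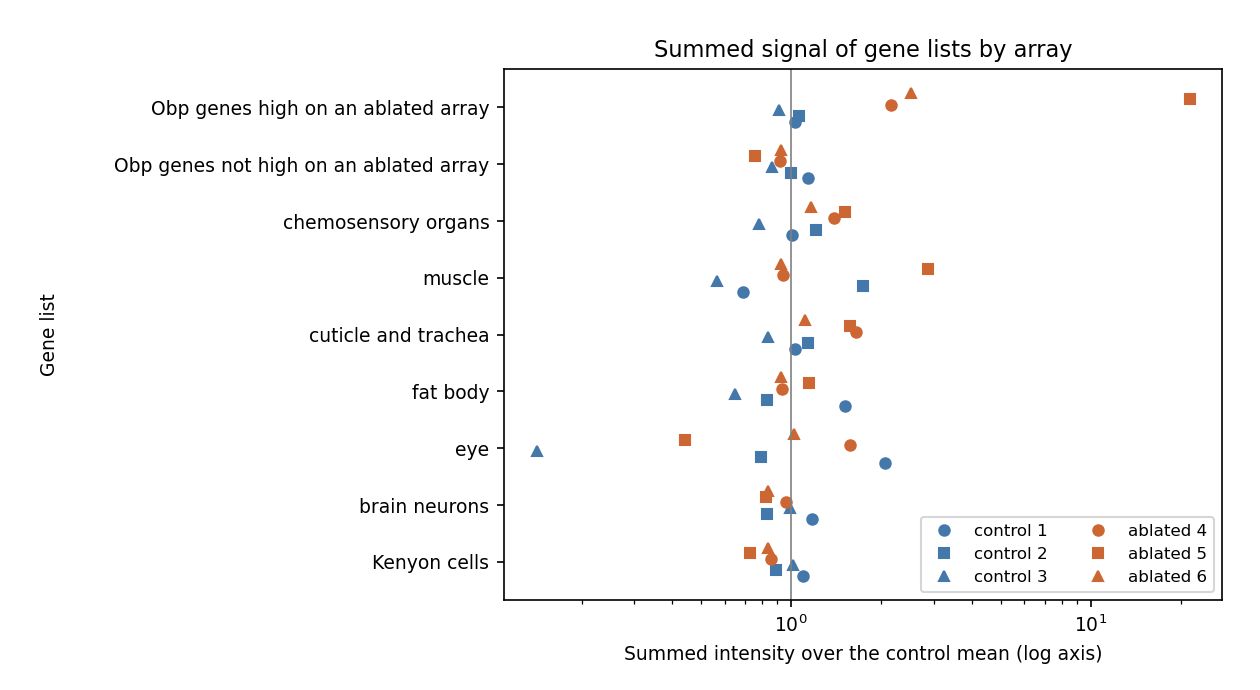
Summed intensity of each gene list on each array, divided by the mean of the 3 control arrays, on a log axis; blue marks control and orange ablated arrays. The 8 high odorant-binding protein genes reach 21.3 times the control mean on ablated 5, 2.51 on ablated 6 and 2.15 on ablated 4, but they were chosen for being high there, unlike the other lists. All 37 members together reach 1.20 on ablated 5 and the 29 not high reach 0.758, while muscle genes reach 2.85 on ablated 5 and 1.74 on control 2.

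Among the genes that were bright in control brains, Obp44a (146792_at), a carrier made in the central nervous system and reported in glia, read 2183.3, 2410.4 and 1985.8 on control 1, 2 and 3, against 1902.0, 1407.2 and 2017.7 on ablated 4, 5 and 6. Ablated 6 was above control 3, so the groups overlapped. The log2 difference was -0.32 (SE 0.14, limma, adjusted p = 0.554), beside a median of -0.17 over all tested probe sets, and -0.16 without ablated 5. The 3 measured glial marker genes summed to between 1557 and 1933 in control and between 1292 and 1638 in ablated brains, and most of that sum was Gs2.

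Obp18a (145346_at) was the steadiest of the bright members, with 259.6, 221.8 and 228.7 on the control arrays, against 277.4, 247.0 and 241.7 on ablated 4, 5 and 6. Its log2 difference was 0.11, with a 95% interval from -0.21 to 0.43 (limma, adjusted p = 0.777). The 2 groups overlapped through control 1 alone, the array with the highest median.

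Obp99a (150831_at) read 557.7, 259.0 and 185.3 on control 1, 2 and 3, against 291.6, 315.6 and 304.7 on ablated 4, 5 and 6. The control arrays spread over 3-fold, while the ablated arrays lay close together within that range. Obp99c (150834_at) read 354.0, 73.5 and 155.2 on the control arrays, against 232.7, 241.9 and 174.1 on ablated 4, 5 and 6, again with control 1 on top. Both genes had their highest value on control 1, as had 36.3% of all probe sets and the summed signal of 12 fat body genes, at 27549, 15152 and 11848 on control 1, 2 and 3, against 16978, 20915 and 16766 on ablated 4, 5 and 6. The part of fat body RNA in the Obp99a and Obp99c values was not tested. Their log2 differences were 0.021 (SE 0.33, limma, adjusted p = 0.988) and 0.42 (SE 0.45, limma, adjusted p = 0.730).

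Obp99b (150837_at) read between 19.4 and 28.4 in control and between 17.6 and 25.8 on the ablated arrays, with a log2 difference of -0.12 (SE 0.23, limma, adjusted p = 0.857). The other 5 members that reached 9.2 somewhere without being high on an ablated array were Obp47b, Obp50e, Obp56a, Obp83ef and Obp85a. Their highest values were 15.9 on control 1 (Obp47b), 13.4 on control 2 (Obp50e), 11.7 on ablated 4 (Obp56a), 11.9 on control 1 (Obp83ef) and 15.6 on ablated 4 (Obp85a). Each of these 5 overlapped between the groups.

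The 19 members below 9.2 on all arrays read between 0.4 and 8.7, and their median was 2.8, 2.2 and 1.6 on control 1, 2 and 3, against 2.5, 3.2 and 2.3 on ablated 4, 5 and 6. They include 2 antennal carriers, Obp69a (PBPRP1) and Obp84a (PBPRP4), as well as Obp8a and Obp56g, known from male seminal fluid. Obp69a was highest on ablated 5 at 8.4, against 6.1 on control 1, and Obp84a read 4.5 on ablated 5 against 3.5 on control 2. The rest were Obp19b, Obp19c, Obp46a, Obp47a, Obp56c, Obp56e, Obp56h, Obp57c, Obp58b, Obp58c, Obp58d, Obp73a, Obp83cd, Obp93a and Obp99d. Differences among values this low were not read as a change.

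Where a gene high on ablated 5 had a measured family member right beside it in the genome, that neighbour stayed below 9.2. In RefSeq gene order Obp19a, Obp19b, Obp19c and Obp19d follow each other with 0 genes between them. The outer genes, Obp19a and Obp19d, read 65.9 and 463.1 on ablated 5, while Obp19b read between 3.2 and 4.9 and Obp19c between 2.8 and 8.7 over all 6 arrays. Obp56d adjoins Obp56c, which read between 0.6 and 7.1. Obp59a adjoins Obp58b, which read between 1.4 and 4.8, with 1.4 on ablated 5.

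The groups were compared with limma over the 8381 probe sets whose mean over the 6 arrays was at least 9.2, and 11 family members were among them. It called 0 members at an adjusted p of 0.05, as it called 0 (0%) of all tested probe sets. At an unadjusted p under 0.05, 4 members were higher and 0 lower (Obp56d, Obp19d, Os-C and Obp28a), where 0.632% of all tested probe sets were higher. Of the 11, however, 4 (Os-C, Obp28a, Obp83b and Obp19a) had a control mean below 9.2 and were tested only through their ablated arrays, so the count of 4 supports nothing about the family. lush, with a mean of 9.13, fell just short of the level for testing. The log2 differences of Os-C, Obp83b, Obp28a and Obp19a were 2.78 (SE 1.21), 2.20 (SE 1.09), 2.20 (SE 0.98) and 1.34 (SE 0.92), with adjusted p of 0.554 for the first 3 genes and 0.606 for Obp19a. Without ablated 5 they were 1.16, 0.74, 0.99 and 0.15.

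**Figure D4:**
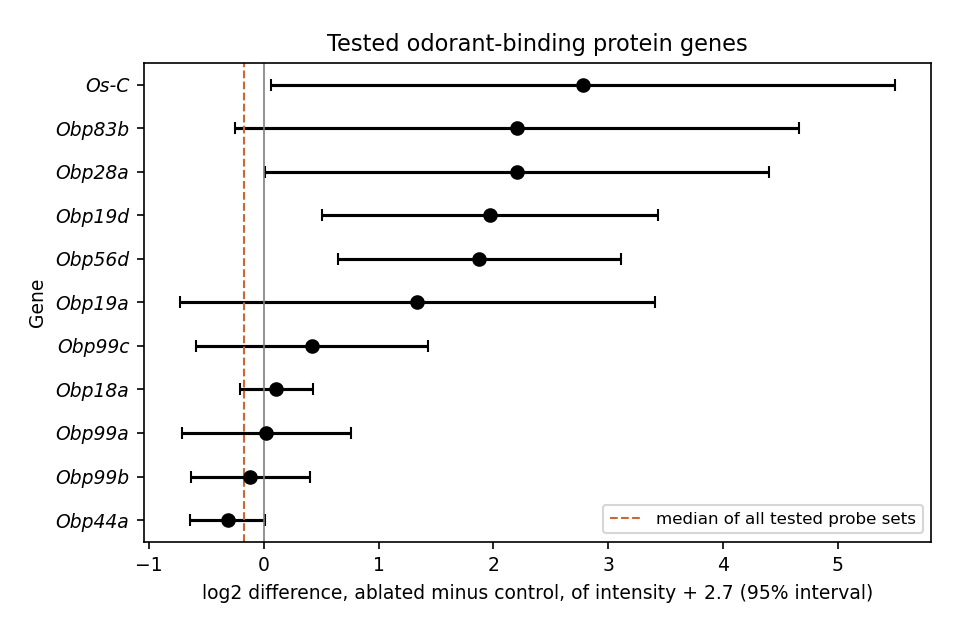
log2 difference between ablated and control brains, of intensity + 2.7, with its 95% interval from limma for the 11 tested genes; the dashed line is the median of all tested probe sets (-0.17). Intervals are wide for the genes high on ablated 5, such as Os-C from 0.061 to 5.50, and narrow for Obp18a and Obp44a.

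Over all 37 members, dim ones included, 28 log2 differences lay above 0 and 9 below, with a median of 0.23, beside a median of -0.12 over all 13966 probe sets. Without ablated 5 the median was 0.13, beside -0.083 over all probe sets.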

How the data were processed

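Each deposited value is the linear intensity of a probe set on an array, made with MAS5 per the submitters' processing notes; version and scaling: not given in the sources used here. Affymetrix control probe sets (44) were left out. Symbols come from the platform annotation, updated through the gene identifier (12394 of 12443 single-gene probe sets matched RefSeq). No 2 arrays shared more than 1.52% identical values. The deposited intensities were not rescaled and were taken as log2(intensity + 2.7), which understates the change of dim genes. The test was limma's moderated test (version 3.58.1 under R 4.3.3), two-sided, with a trend of the variance on intensity and no covariates. P-values were adjusted by Benjamini-Hochberg over all tested probe sets, and the code was checked on simulated data. Counts of high arrays used no variance model. Lists of chemosensory organ, fat body, muscle, cuticle and trachea, eye and hemocyte genes and of neuron, glia and Kenyon cell markers were described by the brightest probe set of each gene. The members, lists and rules were chosen with earlier results of these data known. Members named in full are those of a high or non-overlapping class, the 6 brightest in control, lush, Os-C and adjoining members of unlike class. Outside the family, the 12 largest gaps on ablated 5 are named, several without values. Some list genes of those classes are named too, but not all of them. Alternatives covered scaling, offset, filter, variance model, fold and each array left out.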

Additional observations from a re-analysis of the deposited data

How the results depend on the processing

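No paired analysis was possible because control arrays are numbered 1 to 3 and ablated arrays 4 to 6, so no number is shared. The count of members called by limma was 0 under all alternatives run. The count of members with every ablated array above every control array (2) ranged from 2 to 6 with 1 array left out, and was 6 without control 1 and 6 without ablated 4. The count high on exactly 1 ablated array (5) ranged from 3 to 7, with 3 without ablated 5. Shares over all probe sets were not counted under the alternatives, so these counts have no background there. With 1 array left out, the log2 difference of Obp99a (0.021) ranged from -0.32 to 0.47 and that of Obp99c (0.42) from -0.13 to 0.98. That of Obp99a turned to -0.083 without control 2, -0.32 without control 3 and -0.0063 without ablated 5, and that of Obp99c to -0.13 without control 2; the cause was not tested. No other named member whose difference was tested changed direction under an alternative. The median over all members (0.23) ranged from 0.13 to 0.21 with 1 array left out, and was 0.066 with offset 16 and 0.32 with offset 1. With 1 gene per probe set throughout, taking the brightest probe set changed nothing. Signal near the level of dim probe sets limits 19 of the 37 members, for which no difference could be read.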

Other observations

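The eye and hemocyte lists moved differently from the odorant-binding protein genes high on ablated 5. The summed signal of 8 measured eye genes was 1815, 699 and 125 in the control brains 1 to 3 and 1385, 389 and 897 in the ablated brains 4 to 6, so control 3 and ablated 5 were lowest. The 9 measured hemocyte genes summed to 534, 548 and 417 in control and 464, 425 and 347 on ablated 4, 5 and 6. Marker genes of brain neurons summed to between 1150 and 1619 in control and between 1140 and 1321 in ablated brains, with ablated 5 lowest. Those of Kenyon cells summed to between 2799 and 3454 in control and between 2289 and 2689 in ablated brains. Most of the Kenyon cell sum was rut, whose log2 difference was -0.20, so the sum says little about the other markers. The log2 differences of the 6 Kenyon cell markers were all below 0, with a median of -0.53.

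Probe sets that the annotation maps to a family gene together with another gene were not counted as members. The probe set of Obp57d and Cpr57A (152220_at) read 53.9, 49.5 and 36.2 on control 1, 2 and 3, against 31.8, 37.7 and 30.6 on ablated 4, 5 and 6. The probe set of Obp50b and Obp50c (147198_at) read between 2.8 and 7.6 on all 6 arrays.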
